A study of Homo sapiens with 12 samples.

Results

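The genes described here code for 10 enzymes of RNA and nucleotide metabolism that carry an iron-sulfur (Fe-S) cluster: CDKAL1, CDK5RAP1, TYW1, ELP3, MOCS1, DPYD, ABCE1, PPAT, DPH1 and DPH2. They were chosen by gene symbol, and all 10 were found among the 32966 genes with a count and among the 16891 genes kept for testing. Poly(A) RNA was sequenced from ES2 cells, a human ovarian carcinoma line, in 12 libraries of 4 conditions with 3 replicates each, which the labels call biological replicates. The cells were FDX2-iKO cells: their endogenous FDX2 gene had been knocked out, and FDX2-HA was expressed from a transgene under the TetON system that needs doxycycline (Doxy). All 4 conditions, the controls included, carried this knockout and the transgene, and the cells came from 1 clone unless the study states otherwise. The conditions were 20% O2 + Doxy and 20% O2 wo Doxy, each after 6 days of culture at 20% O2, and 3% O2 + Doxy and 3% O2 wo Doxy, each after 4 days at 20% O2 and 3 further days at 3% O2. Cells without Doxy are the FDX2-depleted cells. The cells at 3% O2 were also 1 day longer in culture, so that oxygen and culture time cannot be told apart.

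FDX2 is a mitochondrial ferredoxin that hands electrons to the machinery that builds Fe-S clusters. That machinery also exports a sulfur-containing precursor from which the cytosolic Fe-S assembly (CIA) system equips enzymes of the cytosol and nucleus. In the enzymes described here the cluster opens S-adenosylmethionine for radical chemistry (CDKAL1, CDK5RAP1, TYW1, ELP3, MOCS1 and the DPH1-DPH2 pair), passes electrons (DPYD), or has a structural or regulatory part (PPAT, ABCE1). A cluster is added to the protein after translation, and the libraries measure mRNA only.

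Totals per library lay between 24958386 and 34313637 counts. The keratin genes KRT7, KRT8 and KRT18 and the mesenchymal genes VIM, FN1 and CDH2 were high in every library, and PAX8, a marker of the Mullerian lineage, had 172 to 596 counts, whereas EPCAM, CDH1 and WT1 had at most 8. Of the markers of other cell types, the leukocyte genes PTPRC and CD3E had at most 2 counts, DES, ACTC1, GFAP and ALB at most 11, and LYZ 27 to 70, while CDH5, an endothelial cadherin, had 656 to 1412 counts beside at most 5 for PECAM1. FDX2 itself had 2 to 13 counts per library with or without Doxy, too few for testing, and 70.9% of its exon bases are shared with other gene models on the same strand, so that the FDX2 labels could not be checked on these counts. In 3 libraries (20% O2 + Doxy replicate 1, 3% O2 + Doxy replicate 3 and 3% O2 wo Doxy replicate 2) transcripts rich in GC were high against transcripts poor in GC, with a gap of 0.37 to 0.43 on the log2 scale, whereas the other 9 libraries lay between -0.33 and 0.12. For the first of these libraries, and for 20% O2 + Doxy replicate 2, the labels state that a raw sequence file was lost after counting. The gap also differed between the conditions without Doxy, from -0.33 to -0.18 at 20% O2 and from 0.044 to 0.39 at 3% O2. Without the GC-rich library, 3% O2 wo Doxy kept gaps of 0.044 and 0.12. In the uncorrected values of that comparison, oxygen and GC gap cannot be told apart. In bulk libraries fewer cells of a type and less RNA per cell cannot be told apart.

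The promoter sequences of the 3 genes whose mRNA changed on FDX2 loss are shown first, since the changes described here are changes of mRNA. They are RefSeq windows of 300 bases on GRCh38.p14, each spanning a start site and lying mostly before it, and 9 of the 10 genes had such a window. Capitals mark the motif named for each. In PPAT, at chr4:56435566-56435865 on the minus strand, the capitals mark the E-box CACGTG 182 bases before the start. In CDKAL1, at chr6:20534207-20534506 on the plus strand, they mark the letters TGATGNAAT of the C/EBP-ATF composite element 44 bases before the start. In DPYD, at chr1:97920985-97921284 on the minus strand, no motif searched was found and no base is in capitals.
PPAT: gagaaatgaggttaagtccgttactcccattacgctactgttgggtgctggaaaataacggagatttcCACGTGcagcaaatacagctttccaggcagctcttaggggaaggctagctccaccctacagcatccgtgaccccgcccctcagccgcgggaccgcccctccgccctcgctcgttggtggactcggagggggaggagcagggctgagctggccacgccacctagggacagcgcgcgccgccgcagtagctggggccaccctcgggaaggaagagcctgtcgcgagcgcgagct
CDKAL1: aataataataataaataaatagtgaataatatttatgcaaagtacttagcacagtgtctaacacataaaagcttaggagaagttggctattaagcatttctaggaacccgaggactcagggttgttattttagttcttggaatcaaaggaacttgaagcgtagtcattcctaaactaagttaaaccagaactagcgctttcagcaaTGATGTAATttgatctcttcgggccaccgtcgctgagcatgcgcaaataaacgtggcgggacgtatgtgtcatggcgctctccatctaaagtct
DPYD: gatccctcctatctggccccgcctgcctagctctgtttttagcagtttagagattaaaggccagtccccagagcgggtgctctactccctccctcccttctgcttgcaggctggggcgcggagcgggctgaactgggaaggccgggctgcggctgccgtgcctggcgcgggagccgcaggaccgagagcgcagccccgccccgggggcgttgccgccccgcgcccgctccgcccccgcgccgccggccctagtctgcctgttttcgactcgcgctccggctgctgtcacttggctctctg

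On GRCh38 with GENCODE 29, CDKAL1 spans chr6:20534457-21232404 and MOCS1 chr6:39899578-39934551, DPYD chr1:97077743-97995000 and DPH2 chr1:43970000-43973369, PPAT chr4:56393362-56435615 and ABCE1 chr4:145097932-145129179. CDK5RAP1 spans chr20:33358839-33401561, TYW1 chr7:66995173-67239519, ELP3 chr8:28089673-28191156 and DPH1 chr17:2030110-2043430. The windows of DPYD, TYW1 and ABCE1 lie inside their annotated gene spans, so that the annotations place their start sites differently. The windows differed in base composition. The GC content was 39.0% in CDKAL1, 63.7% in PPAT and 70.3% in DPYD. PPAT stands head to head with PAICS, which codes for a later enzyme of the same pathway: the start sites, 56435615 for PPAT and 56435752 for PAICS, are 137 bases apart, and the windows share 236 bases, the E-box included. Both strands were searched in all 27305 windows for 6 motifs. CACGTG was present in 7.43% of all windows and in 2 of the 9, those of PPAT and DPH2. ACGTG, the core of the hypoxia response element, which also matches inside CACGTG, was present in 21.6% of all windows and in those of CDKAL1, PPAT and DPH2. TGATGNAAT was present in 1.02% of all windows and in that of CDKAL1, and TGACGTCA, the full CREB/ATF site, in 1.98% and in that of ABCE1. CCAAT was present in 35.7% of all windows and in those of CDK5RAP1, TYW1, MOCS1 and DPH2, and the NRF1 site in 6.28% and in none of the 9. These matches describe letters in a window and no binding was measured.

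The 10 mRNAs were present in all 4 conditions. Levels are given as CPM, counts scaled to a common library total, or as RPKM, the same per kilobase of exon, and only RPKM were used to compare genes with each other. Per kilobase of exon (RPKM), ABCE1 was the highest in each condition, with a mean of 41.3 ± 4.995 (SD, n = 3) in 20% O2 + Doxy, and DPH2 followed with 26.8 ± 4.10. PPAT (13.9 ± 1.26) and CDK5RAP1 (11.8 ± 0.772) came next in that condition, and their replicates overlapped in 20% O2 wo Doxy and in 3% O2 + Doxy. ELP3 (6.54 ± 0.140), DPH1 (5.97 ± 1.49) and TYW1 (5.37 ± 0.549) formed a middle group in which neighbours overlapped. At the low end stood CDKAL1 (4.198 ± 0.289), MOCS1 (3.70 ± 0.426) and DPYD (2.64 ± 0.199). The order at the low end was not the same in every condition: in 20% O2 wo Doxy, DPYD (3.77 ± 0.119) stood above MOCS1 (3.03 ± 0.0391) with no overlap of replicates. The condition means of one gene spanned from 0.059 (ELP3) to 0.54 (DPYD) on the log2 scale, and CDKAL1 (0.49), PPAT (0.39) and ABCE1 (0.37) followed DPYD.

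**Figure D1:**
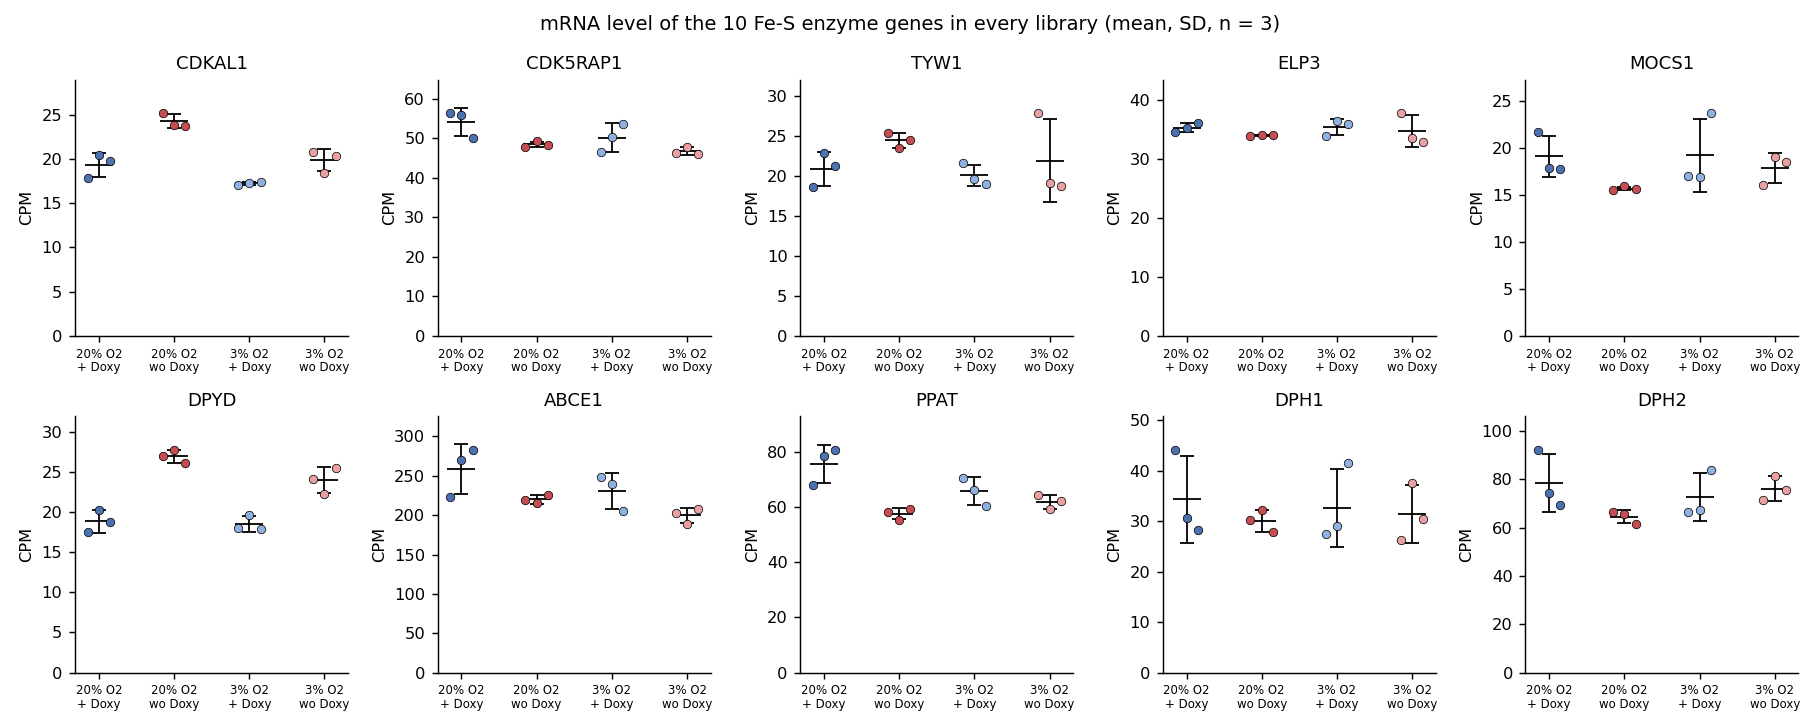
Level of the 10 mRNAs in CPM (counts scaled to a common TMM library total, vertical axes from 0) in each of the 12 libraries, grouped by condition; points are libraries, horizontal bars the mean and error bars the SD of 3 replicates. DPYD and CDKAL1 are highest in 20% O2 wo Doxy, PPAT is highest in 20% O2 + Doxy, and DPH1, DPH2 and MOCS1 each have 1 library far above the other replicates of 20% O2 + Doxy.

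FDX2 loss at 20% O2 was accompanied by changes of 3 of the 10 mRNAs: DPYD and CDKAL1 rose and PPAT fell. The difference was called at an adjusted p under 0.05 by the quasi-likelihood test of edgeR, with p-values adjusted after Benjamini and Hochberg over all genes tested, the rule used throughout, and 35.3% of all genes were called in this comparison (17.6% higher and 17.7% lower). The replicates of 8 of the 10 genes did not overlap between the conditions (3 higher and 5 lower), as for 52.3% of all genes (26.5% higher and 25.8% lower). At an unadjusted p under 0.05 stood 6 of the 10, beside 44.6% of all genes. The median log2 fold change of the 10 genes was -0.18, beside 0.0090 for all genes. At 3% O2, where 7.31% of all genes were called (4.2% higher and 3.11% lower), only DPYD passed the test on FDX2 loss, and the median was -0.042 beside 0.041 for all genes. The replicates of 2 of the 10, CDKAL1 and DPYD, did not overlap and were higher, as for 24.6% of all genes (13.4% higher and 11.2% lower), and 3 of the 10 had an unadjusted p under 0.05, beside 23.1% of all genes. The difference between the FDX2-loss responses at 3% and 20% O2 was called for none of the 10 genes, beside 7.29% of all genes (3.21% higher and 4.08% lower). An unadjusted p under 0.05 was found for 1 gene, PPAT, beside 23.4% of all genes. DESeq2's Wald test also called none, beside 11.4% of all genes.

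Between 3% and 20% O2 with Doxy, none of the 10 mRNAs was called, beside 2.02% of all genes (1.63% higher and 0.385% lower). CDKAL1 and PPAT had an unadjusted p under 0.05, beside 13% of all genes. The replicates of 1 of the 10, CDKAL1, did not overlap and were lower, as for 15.4% of all genes (8.83% higher and 6.61% lower). DESeq2's Wald test also called none, beside 3.67% of all genes. Without Doxy, CDKAL1 alone passed the test and was lower at 3% O2, beside 25.8% of all genes called (13.9% higher and 11.9% lower). The replicates of 6 of the 10 did not overlap (2 higher and 4 lower), as for 49.4% of all genes (27.4% higher and 22% lower), and 2 of the 10 had an unadjusted p under 0.05, beside 39% of all genes. In this comparison libraries of the same replicate number deviated alike, although the labels do not state that the numbers mark a shared batch. A fit of the 6 libraries with the replicate number as a block called 3 of the 10 genes, beside 31.1% of all genes. CDKAL1 and ABCE1 were lower and DPH2 was higher at 3% O2. The same 6 libraries without a block called 2, CDKAL1 and DPH2, beside 34.2% of all genes. These comparisons share libraries: each condition enters a Doxy comparison and an oxygen comparison. With the GC content of transcripts corrected in each library, the number of the 10 genes called rose from 3 to 5 for FDX2 loss at 20% O2 (46.4% of all genes), from 1 to 3 at 3% O2 (19.3%), from 0 to 1 and from 1 to 2 for oxygen with and without Doxy (7.48% and 33.1%), and from 0 to 2 for the difference of the responses (18.3%).

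**Figure D2:**
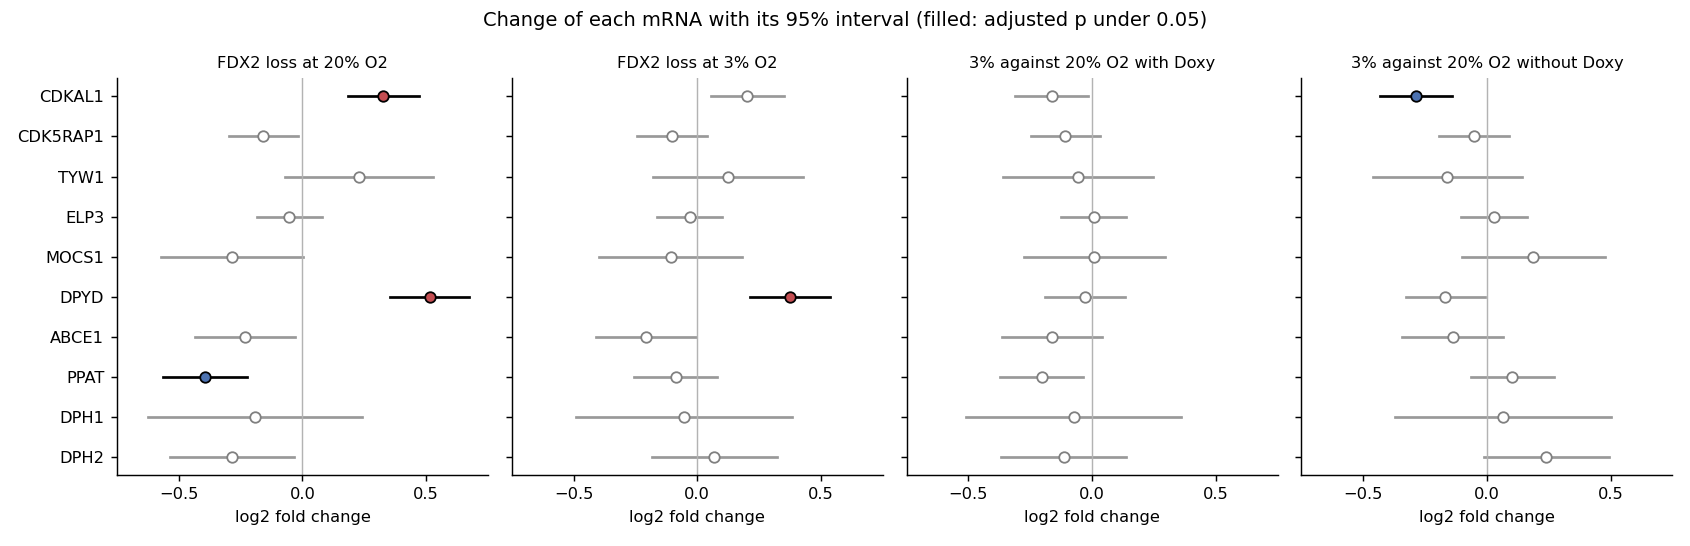
Log2 fold change (horizontal axis) of each of the 10 mRNAs in the 4 comparisons, with the 95% interval of the edgeR fit as a bar; filled points passed an adjusted p of 0.05 and open points did not. DPYD (0.51), CDKAL1 (0.33) and PPAT (-0.39) are filled for FDX2 loss at 20% O2, DPYD (0.37) at 3% O2, and CDKAL1 (-0.29) for oxygen without Doxy.

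CDKAL1 adds a methylthio group to the threonylcarbamoyladenosine at position 37 of cytosolic lysine tRNA. It stood at 17.8, 20.4 and 19.7 CPM with Doxy and 25.2, 23.9 and 23.7 CPM without Doxy at 20% O2, and at 17.1, 17.3 and 17.4 CPM with Doxy and 20.8, 18.4 and 20.3 CPM without Doxy at 3% O2. All 3 libraries without Doxy lay above all 3 with Doxy at either oxygen level. At 20% O2 the mRNA rose by 0.33 on the log2 scale (SE 0.066, adjusted p = 0.0029). At 3% O2 the log2 difference was 0.20 (SE 0.067, adjusted p = 0.094) and did not pass the test, although it was called after GC correction (0.24, adjusted p = 0.0068). In FDX2-depleted cells CDKAL1 was lower at 3% than at 20% O2 (log2 -0.29, SE 0.066, adjusted p = 0.0097), and it fell in the same direction without the 3 GC-rich libraries (-0.25, adjusted p = 0.0054). With Doxy the oxygen difference was -0.16 (adjusted p = 0.31), and the difference between the 2 FDX2-loss responses was -0.12 (95% interval -0.33 to 0.082).

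CDK5RAP1, the mitochondrial counterpart that methylthiolates isopentenyladenosine in mitochondrial tRNAs, stood at 56.4, 55.9 and 50.1 CPM with Doxy and 47.9, 49.3 and 48.3 CPM without Doxy at 20% O2. The libraries did not overlap, but the difference (log2 -0.16, SE 0.064) did not pass the test (adjusted p = 0.076). DESeq2's Wald test called it (log2 -0.17, adjusted p = 0.037). At 3% O2 the levels were 46.5, 50.5 and 53.6 CPM with Doxy and 46.3, 47.9 and 46.0 CPM without Doxy, and they overlapped (log2 -0.10, adjusted p = 0.37).

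TYW1, which forms the tricyclic core of wybutosine in phenylalanine tRNA, stood at 18.6, 22.8 and 21.2 CPM with Doxy and 25.4, 23.6 and 24.5 CPM without Doxy at 20% O2 (log2 0.23, SE 0.14, adjusted p = 0.22). At 3% O2 it stood at 21.6, 19.6 and 19.0 CPM with Doxy and 27.9, 19.2 and 18.7 CPM without Doxy. Replicate 1 of 3% O2 wo Doxy lay above every other library for this gene. The oxygen difference without Doxy was -0.16 (adjusted p = 0.41) with that library and -0.37 (adjusted p = 0.017) without it, so that 1 library decided this call. TYW1B, a near-identical paralog, had 28 to 59 counts per library and was not called in any comparison, and how reads matching both copies were counted is not given in the sources used here.

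The partner enzymes that act at tRNA position 37, which make wybutosine, threonylcarbamoyladenosine or isopentenyladenosine, comprised 13 genes, all tested. On FDX2 loss at 20% O2, 2 rose, 2 fell and 9 did not pass the test (median log2 0.031 beside 0.0090 for all genes), a called share no higher than the 35.3% of all genes. TRIT1, which makes the isopentenyladenosine that CDK5RAP1 modifies, rose by 0.23 (adjusted p = 0.0036), and TYW5, a wybutosine hydroxylase, rose by 0.30 (adjusted p = 0.0097). LCMT2, which completes wybutosine, fell (log2 -0.48, adjusted p = 0.0046), and YRDC, which makes the threonylcarbamoyl donor, fell by 0.18 (adjusted p = 0.046). The TRIT1 call was lost with no filter on low counts (0.19, adjusted p = 0.062), and the TYW5 call when 20% O2 + Doxy replicate 1 or 20% O2 wo Doxy replicate 2 or 3 was left out (adjusted p up to 0.083). None of the 13 was called on FDX2 loss at 3% O2, where 2 had an unadjusted p under 0.05, or between oxygen levels with Doxy, where 1 did. Without Doxy, 1 of the 13 was higher and 2 were lower at 3% O2, beside 13.9% and 11.9% of all genes. LCMT2 was higher (log2 0.48, adjusted p = 0.0080), and TYW5 (-0.41, adjusted p = 0.0032) and TRMT5, the methyltransferase that starts wybutosine synthesis (-0.35, adjusted p = 0.0025), were lower. These 3 oxygen calls held in each refit at the same threshold (other filters, scalings and tools, or 1 library left out), and none of the changes reached 2-fold.

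ELP3 is the catalytic subunit of Elongator, which starts the modification of wobble uridines in tRNA. It varied least of the 10 genes: 34.5, 35.2 and 36.0 CPM with Doxy and 33.9, 34.02 and 33.998 CPM without Doxy at 20% O2, and 33.8, 36.4 and 35.9 CPM with Doxy and 37.7, 33.5 and 32.8 CPM without Doxy at 3% O2. The log2 difference on FDX2 loss was -0.053 at 20% O2 (95% interval -0.19 to 0.079) and -0.031 at 3% O2 (-0.16 to 0.10), and neither passed the test. Of the 13 genes of wobble uridine modification, 2 rose, 4 fell and 7 were not called on FDX2 loss at 20% O2 (median log2 -0.18 beside 0.0090 for all genes), while 35.3% of all genes were called. Among those that fell were the Elongator subunits ELP5 (-0.32, adjusted p = 0.0040) and ELP6 (-0.26, adjusted p = 0.0071) and TRMT112, a cofactor of tRNA methyltransferases (-0.21, adjusted p = 0.039). ALKBH8, which carries out the last methylation and the hydroxylation of the wobble side chain, rose by 0.33 (adjusted p = 0.0032), and DPH3, an electron donor that serves both Elongator and diphthamide synthesis, rose by 0.36 (adjusted p = 0.0024).

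Between oxygen levels none of the 13 wobble genes was called with Doxy, beside 2.02% of all genes (1 had an unadjusted p under 0.05). Without Doxy 6 were called, beside 25.8% of all genes (median log2 0.11 beside 0.065 for all genes). ELP5 (0.27, adjusted p = 0.015), ELP6 (0.21, adjusted p = 0.028) and the thiolation factor MOCS3 (0.20, adjusted p = 0.044) were higher at 3% O2, and DPH3 (-0.52, adjusted p = 0.00051), ALKBH8 (-0.35, adjusted p = 0.0040) and ELP4 (-0.26, adjusted p = 0.040) were lower. The transcripts of DPH3 (39.2% GC), ALKBH8 (39.2%) and ELP4 (36.5%) were poorer in GC than those of ELP5 (54.1%), ELP6 (54.8%) and MOCS3 (45.6%). The DPH3 and ALKBH8 calls held in each refit at the same threshold, and ELP6, MOCS3 and ELP4 were not refitted. The ELP5 call did not hold after GC correction (0.12, adjusted p = 0.17), nor without 20% O2 wo Doxy replicate 3 or 3% O2 wo Doxy replicate 2 (adjusted p up to 0.070).

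MOCS1 carries out the first step of molybdenum cofactor synthesis. It stood at 21.7, 17.9 and 17.8 CPM with Doxy and 15.6, 15.9 and 15.6 CPM without Doxy at 20% O2, and at 17.1, 16.9 and 23.7 CPM with Doxy and 16.02, 19.0 and 18.5 CPM without Doxy at 3% O2. The highest replicate of each Doxy condition was a GC-rich library. The difference at 20% O2 (log2 -0.29, SE 0.13) did not pass the test (adjusted p = 0.12), and without the 3 GC-rich libraries it was smaller and called (-0.20, adjusted p = 0.032). At 3% O2 it was -0.11 (adjusted p = 0.66) with all libraries and 0.0059 (adjusted p = 0.97) without those 3. MOCS1 shares 16.7% of its exon bases with other gene models, mostly with DAAM2 on the opposite strand, and whether the counting used strand is not given in the sources used here.

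Of the 9 genes for later steps of the cofactor and for the enzymes that use it, 8 were tested, and on FDX2 loss at 20% O2, 1 rose, 3 fell and 4 were not called (median log2 -0.13), beside 35.3% of all genes called. AOX1, aldehyde oxidase, stood at 96.1, 100.4 and 98.8 CPM with Doxy and 152.4, 150.0 and 147.6 CPM without Doxy at 20% O2. It rose by 0.61 (SE 0.044, adjusted p = 2.7e-06), and at 3% O2 by 0.39 (SE 0.044, adjusted p = 0.00071). Both AOX1 calls held in each refit at the same threshold, and neither change reached 2-fold. XDH, xanthine oxidoreductase, which ends purine breakdown, stood at 28.4, 27.5 and 26.2 CPM with Doxy and 16.05, 15.1 and 15.4 CPM without Doxy at 20% O2. It fell (log2 -0.82, SE 0.087, adjusted p = 3.9e-05), opposite in direction to AOX1, although both enzymes use the same cofactor and also hold Fe-S clusters. GPHN, gephyrin, which inserts the molybdenum, fell (-0.41, adjusted p = 0.00024), and SUOX, sulfite oxidase, fell (-0.31, adjusted p = 0.013). On FDX2 loss at 3% O2, AOX1 alone of the 8 was called, beside 7.31% of all genes (median log2 -0.042 beside 0.041 for all genes). XDH had a value of -0.28 there and did not pass the test (adjusted p = 0.071), although its replicates did not overlap.

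XDH was also called between oxygen levels, with 39.3, 42.6 and 48.0 CPM with Doxy and 32.6, 39.3 and 35.2 CPM without Doxy at 3% O2. All 6 libraries at 3% O2 lay above all 6 at 20% O2. It was higher at 3% O2 with Doxy (0.66, adjusted p = 0.0014) and without Doxy (1.20, SE 0.087, adjusted p = 1e-05). MOCOS, the sulfurase that activates the cofactor of XDH and AOX1, was lower at 3% O2 without Doxy (-0.36, adjusted p = 0.0090). The median over the 8 genes without Doxy was 0.033 beside 0.065 for all genes, with 3 called higher and 1 lower (13.9% and 11.9% of all genes). SUOX was among those called higher (0.24, adjusted p = 0.048), a call lost in all 6 fits that left out 1 library (adjusted p up to 0.13) and after GC correction (0.15, adjusted p = 0.082).

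DPYD, dihydropyrimidine dehydrogenase, carries out the first and rate-limiting step of pyrimidine breakdown and also inactivates fluorouracil. It stood at 17.5, 20.3 and 18.8 CPM with Doxy and 27.0, 27.7 and 26.0 CPM without Doxy at 20% O2, and at 18.0, 19.6 and 17.9 CPM with Doxy and 24.1, 22.2 and 25.5 CPM without Doxy at 3% O2. All 6 libraries without Doxy lay above all 6 with Doxy. It rose 1.43-fold on FDX2 loss at 20% O2 (log2 0.51, SE 0.073, adjusted p = 0.00029) and 1.30-fold at 3% O2 (log2 0.37, SE 0.073, adjusted p = 0.012). Without the 3 GC-rich libraries the log2 values were 0.45 and 0.38, both called. The call at 3% O2 was lost without 3% O2 + Doxy replicate 1 (0.35, adjusted p = 0.052) or 3% O2 wo Doxy replicate 3 (0.32, adjusted p = 0.051). The difference between the 2 responses was -0.14 (95% interval -0.37 to 0.086), and oxygen differences were -0.027 with Doxy and -0.17 without Doxy (adjusted p = 0.95 and 0.11). DPYD shares 8.46% of its exon bases with other gene models, mostly with MIR137HG on the same strand.

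Among the 5 other genes of pyrimidine breakdown, 2 were tested. The following enzymes of the pathway, DPYS and UPB1, and UPP2 had too few counts. UPP1, uridine phosphorylase, which frees uracil from uridine, stood at 140.4, 118.4 and 118.5 CPM with Doxy and 235.0, 244.0 and 233.1 CPM without Doxy at 20% O2, and at 153.3, 161.0 and 178.0 CPM with Doxy and 165.7, 176.3 and 164.2 CPM without Doxy at 3% O2. It rose 1.89-fold on FDX2 loss at 20% O2 (log2 0.92, SE 0.077, adjusted p = 7.1e-06), and at 3% O2 the libraries overlapped (log2 0.040, adjusted p = 0.79). Between oxygen levels UPP1 was higher at 3% O2 with Doxy (0.38, adjusted p = 0.025) and lower without Doxy (-0.49, adjusted p = 0.0011). The call with Doxy was lost without 20% O2 + Doxy replicate 2 or 3 or 3% O2 + Doxy replicate 2 or 3 (adjusted p up to 0.14), whereas the 2 other calls held in each refit at the same threshold. TYMP, thymidine phosphorylase, stood at 0.328 to 0.644 CPM on average and was not called in any comparison.

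PPAT, amidophosphoribosyltransferase, carries out the committed step of de novo purine synthesis. It stood at 67.9, 78.5 and 80.7 CPM with Doxy and 58.3, 55.3 and 59.3 CPM without Doxy at 20% O2, and at 70.4, 66.4 and 60.5 CPM with Doxy and 64.3, 59.2 and 62.2 CPM without Doxy at 3% O2. The groups were apart at 20% O2 and overlapped at 3% O2. At 20% O2 PPAT fell (log2 -0.39, SE 0.076, adjusted p = 0.0023), and its value was -0.48 (adjusted p = 6.8e-05) without the 3 GC-rich libraries. At 3% O2 the difference was -0.087 (95% interval -0.26 to 0.081, adjusted p = 0.53). The difference between the responses was 0.31 (SE 0.11) and was not called (adjusted p = 0.12). It was called after GC correction (0.40, adjusted p = 0.0015) and without the 3 GC-rich libraries (0.35, adjusted p = 0.014). For oxygen without Doxy the difference was 0.10 (adjusted p = 0.34), and it was called after GC correction (0.31, adjusted p = 0.00033). With a transcript GC content of 33.8%, PPAT had the lowest of the 10 genes, and 0.989% of the tested genes with a GC value stood at or below it.

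The list of 12 further genes from PRPP supply through IMP to AMP and GMP was tested whole. On FDX2 loss at 20% O2, 7 fell, none rose and 5 were not called (median log2 -0.26 beside 0.0090 for all genes), while 17.7% of all genes were called lower. PRPS2, which makes the substrate PRPP, stood at 61.9, 62.3 and 69.5 CPM with Doxy and 41.0, 41.8 and 41.4 CPM without Doxy, and fell (-0.64, SE 0.064, adjusted p = 2.5e-05). PFAS, the fourth enzyme of the pathway, fell (-0.62, adjusted p = 0.0043), from 186.6, 149.9 and 135.5 CPM to 104.3, 101.5 and 101.3 CPM. GMPS, which makes GMP, fell (-0.53, adjusted p = 8.3e-05), and the fall of IMPDH1, the step before it (-0.60, adjusted p = 0.030), was lost in 5 of the 6 fits that left out 1 library (adjusted p up to 0.098), all but the one without 20% O2 + Doxy replicate 3. PAICS, the head-to-head neighbour of PPAT, fell by 0.27 (adjusted p = 0.0014), and GART (-0.25, adjusted p = 0.0015) and ADSL (-0.27, adjusted p = 0.041) also fell. The ADSL replicates overlapped between the conditions, with means of 9.55 CPM with Doxy and 7.89 CPM without Doxy. ADSL shares 18.9% of its exon bases with another gene model on the same strand.

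At 3% O2, 2 of the 12 purine genes fell and none rose (median log2 -0.12 beside 0.041 for all genes, of which 3.11% were called lower). PRPS2 stood at 68.1, 62.3 and 60.8 CPM with Doxy and 47.3, 45.5 and 49.6 CPM without Doxy, a fall by 0.42 (SE 0.064, adjusted p = 0.0030). Both PRPS2 calls on FDX2 loss held in each refit at the same threshold. The fall of GART by 0.17 (adjusted p = 0.046) was lost in 5 of the 6 fits that left out 1 library (adjusted p up to 0.15), all but the one without 3% O2 wo Doxy replicate 1. The 4 genes of the list with the largest fall at 20% O2, PRPS2, PFAS, IMPDH1 and GMPS, had 3% O2 values of -0.42, -0.14, -0.012 and -0.20. Between oxygen levels none of the 12 was called with Doxy (3 had an unadjusted p under 0.05), and PRPS2 alone was called without Doxy (0.20, adjusted p = 0.044), a call that was lost in all 6 fits that left out 1 library (adjusted p up to 0.18).

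ABCE1 splits terminated ribosomes into subunits for recycling. It stood at 223.4, 269.9 and 282.9 CPM with Doxy and 219.1, 215.3 and 226.2 CPM without Doxy at 20% O2, and at 248.0, 240.0 and 205.3 CPM with Doxy and 203.2, 189.0 and 207.6 CPM without Doxy at 3% O2. Replicate 1 of 20% O2 + Doxy and replicate 3 of 3% O2 + Doxy, both GC-rich libraries, were the lowest with Doxy and overlapped the libraries without Doxy. The log2 differences on FDX2 loss were -0.23 at 20% O2 (SE 0.092, adjusted p = 0.071) and -0.21 at 3% O2 (SE 0.092, adjusted p = 0.20), and neither passed the test. Both were called after GC correction (-0.25, adjusted p = 0.00017, and -0.15, adjusted p = 0.014), and both were called without the 3 GC-rich libraries (-0.34, adjusted p = 0.00016, and -0.27, adjusted p = 0.0059). The transcript GC content of ABCE1 is 38.4%, the second lowest of the 10 genes. ABCE1 shares 11.9% of its exon bases with genes on the opposite strand.

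The 10 genes of termination, recycling and delivery of clusters to ABCE1 were all tested. On FDX2 loss at 20% O2, 3 rose and 4 fell (median log2 0.036 beside 0.0090 for all genes), beside 17.6% of all genes called higher and 17.7% lower. The release factor genes ETF1 (-0.24, adjusted p = 0.0055), GSPT1 (-0.25, adjusted p = 0.0030) and GSPT2 (-0.32, adjusted p = 0.0053) and the rescue factor PELO (-0.31, adjusted p = 0.023) fell. EIF2D, which removes tRNA from recycled small subunits, rose by 0.50 (SE 0.058, adjusted p = 7.3e-05), from 71.4, 70.5 and 67.8 CPM to 100.1, 99.8 and 96.0 CPM. HBS1L, the partner of PELO, rose by 0.32 (adjusted p = 0.0015), so that the genes of this pair moved in opposite directions. YAE1, which with LTO1 brings ABCE1 to the CIA system, rose by 0.27 (adjusted p = 0.014), and LTO1 itself was not called (0.14, adjusted p = 0.17).

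At 3% O2, HBS1L (0.29, adjusted p = 0.012) and EIF2D (0.23, adjusted p = 0.039) rose and none of the 10 fell (median log2 -0.068 beside 0.041 for all genes). The HBS1L call was lost without 3% O2 + Doxy replicate 2 (adjusted p = 0.088), and the EIF2D call in 5 of the 6 fits that left out 1 library (adjusted p up to 0.17), all but the one without 3% O2 + Doxy replicate 3. Between oxygen levels with Doxy none was called (2 had an unadjusted p under 0.05). Without Doxy, 3 of the 10 were lower at 3% O2, beside 11.9% of all genes: YAE1 (-0.33, adjusted p = 0.0085), EIF2D (-0.23, adjusted p = 0.016) and MCTS1, a factor related to EIF2D (-0.21, adjusted p = 0.024). The EIF2D call was lost without 3% O2 wo Doxy replicate 2 or 3 (adjusted p up to 0.057), and the MCTS1 call without any of the 20% O2 wo Doxy replicates or 3% O2 wo Doxy replicate 1 (adjusted p up to 0.089).

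DPH1 and DPH2 together start the synthesis of diphthamide, a modified histidine found in elongation factor 2 alone. DPH1 stood at 44.2, 30.7 and 28.2 CPM with Doxy and 30.2, 32.2 and 27.9 CPM without Doxy at 20% O2, and at 27.4, 28.99 and 41.5 CPM with Doxy and 26.4, 37.6 and 30.4 CPM without Doxy at 3% O2. In each of the 3 conditions that hold a GC-rich library, that library was the highest. DPH1 was not called in any comparison (log2 -0.19 at 20% O2, SE 0.20, adjusted p = 0.49, and -0.053 at 3% O2, SE 0.20, adjusted p = 0.90), and the value at 20% O2 was 0.020 without the 3 GC-rich libraries. After GC correction together with the replicate block DPH1 was called lower at 3% O2 without Doxy (-0.22, adjusted p = 0.034), where the value with all libraries and no correction was 0.064. DPH1 shares 19.5% of its exon bases with OVCA2 on the same strand, so that its counts may hold or lack reads of that gene.

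DPH2 stood at 92.2, 74.4 and 69.4 CPM with Doxy and 66.5, 65.6 and 61.6 CPM without Doxy at 20% O2, and at 66.4, 67.5 and 84.0 CPM with Doxy and 71.3, 81.6 and 75.8 CPM without Doxy at 3% O2. All libraries with Doxy lay above those without Doxy at 20% O2, and the groups overlapped at 3% O2. The log2 difference at 20% O2 was -0.28 (SE 0.11) and did not pass the test (adjusted p = 0.076), and at 3% O2 it was 0.069 (95% interval -0.18 to 0.32). At 20% O2 it was called lower after GC correction (-0.12, adjusted p = 0.0075) and without the 3 GC-rich libraries (-0.17, adjusted p = 0.018), with a value less than that from all libraries. The difference between the responses was 0.35 (adjusted p = 0.22) with all libraries, and it was called after GC correction (0.15, adjusted p = 0.030) and without the 3 libraries (0.28, adjusted p = 0.027). For oxygen without Doxy, DPH2 was 0.24 higher at 3% O2 (adjusted p = 0.15). It was called in the 6 libraries compared, with or without the replicate block, and without the 3 GC-rich libraries. It was not called with the block in all 12 libraries or after GC correction (0.017, adjusted p = 0.71). With Doxy the oxygen difference was -0.11 (adjusted p = 0.77), called lower after GC correction (-0.14, adjusted p = 0.020).

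**Figure D3:**
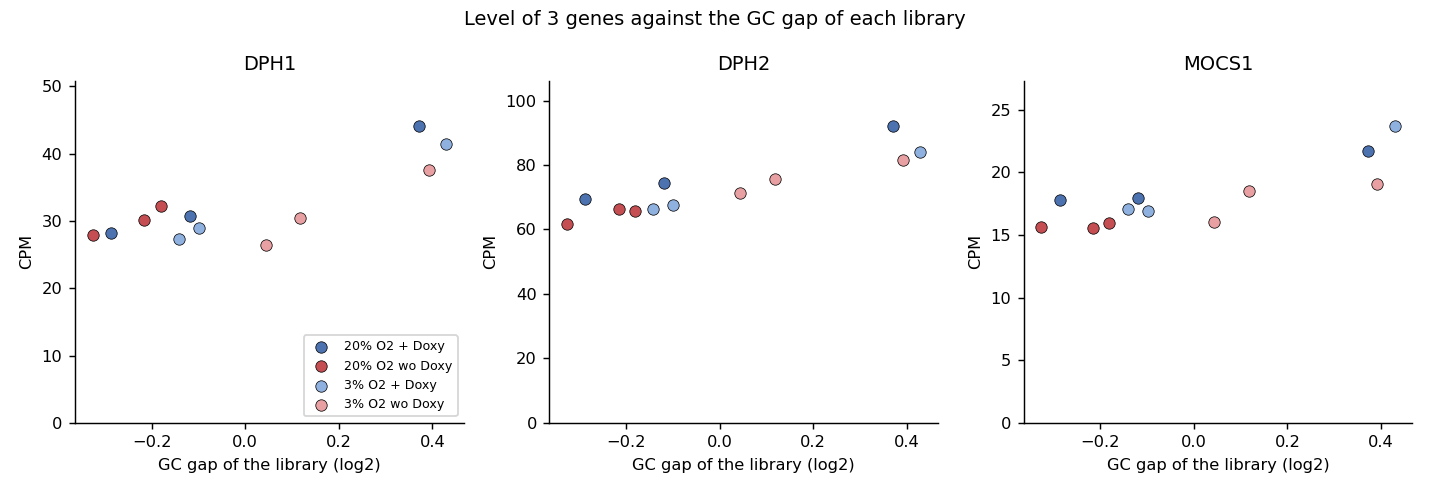
Level of DPH1, DPH2 and MOCS1 in CPM (vertical axes from 0) against the GC gap of each library (horizontal axes, log2), the median of GC-rich transcripts less that of GC-poor transcripts relative to the mean of the libraries; each point is 1 of 12 libraries, coloured by condition. The 3 libraries with a gap of 0.37 to 0.43 are the 3 highest of each panel, from 37.6 to 44.2 CPM for DPH1.

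The transcripts of DPH1 (59.3% GC), DPH2 (57.2%) and MOCS1 (53.4%) were the richest in GC of the 10 genes, and PPAT (33.8%), ABCE1 (38.4%) and DPYD (40.7%) the poorest. The former were high and ABCE1 and PPAT were low in 20% O2 + Doxy replicate 1 and 3% O2 + Doxy replicate 3. DPYD was low in these as well, with 17.5 and 17.9 CPM, but by less than its difference between conditions. What set the GC content of these libraries was not tested.

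Diphthamide partners comprised 6 genes, all tested, of which 2 rose and none fell on FDX2 loss at 20% O2 (median log2 0.086), beside 17.6% of all genes called higher. DPH3, the electron donor of the DPH1-DPH2 enzyme, stood at 31.8, 34.7 and 35.7 CPM with Doxy and 44.6, 42.5 and 44.1 CPM without Doxy at 20% O2, and at 31.2, 34.7 and 29.2 CPM with Doxy and 29.3, 31.7 and 30.4 CPM without Doxy at 3% O2. The 3 libraries of 20% O2 wo Doxy lay above all 9 others. DPH5, the methyltransferase of the second step, rose by 0.27 at 20% O2 (adjusted p = 0.011), a call lost without 20% O2 + Doxy replicate 1 or 20% O2 wo Doxy replicate 2 or 3 (adjusted p up to 0.086). None of the 6 was called on FDX2 loss at 3% O2, where none had an unadjusted p under 0.05 either, or between oxygen levels with Doxy, where 1 did. Without Doxy 4 of the 6 were lower at 3% O2, beside 11.9% of all genes (median log2 -0.35 beside 0.065 for all genes): DPH3 (-0.52), DPH6, the last enzyme (-0.49, adjusted p = 0.010), DPH5 (-0.39, adjusted p = 0.0024) and DNAJC24, also named DPH4 (-0.31, adjusted p = 0.0020). The DPH6 call was lost with the replicate block and GC correction together (-0.29, adjusted p = 0.053). The oxygen calls of DPH3 and DPH5 held in each refit at the same threshold, and DNAJC24 was not refitted. Transcript GC content was 39.22% in DPH3, 33.99% in DPH6, 41.96% in DPH5 and 37.01% in DNAJC24. It was 58.2% in DPH7 and 59.86% in EEF2, which were not called. In the uncorrected values of these genes without Doxy, oxygen and GC gap cannot be told apart. EEF2, the gene of the target protein, stood at 3820 to 5683 CPM, highest in the 3 GC-rich libraries, and was not called in any comparison (-0.062 on FDX2 loss at 20% O2, adjusted p = 0.81).

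**Figure D4:**
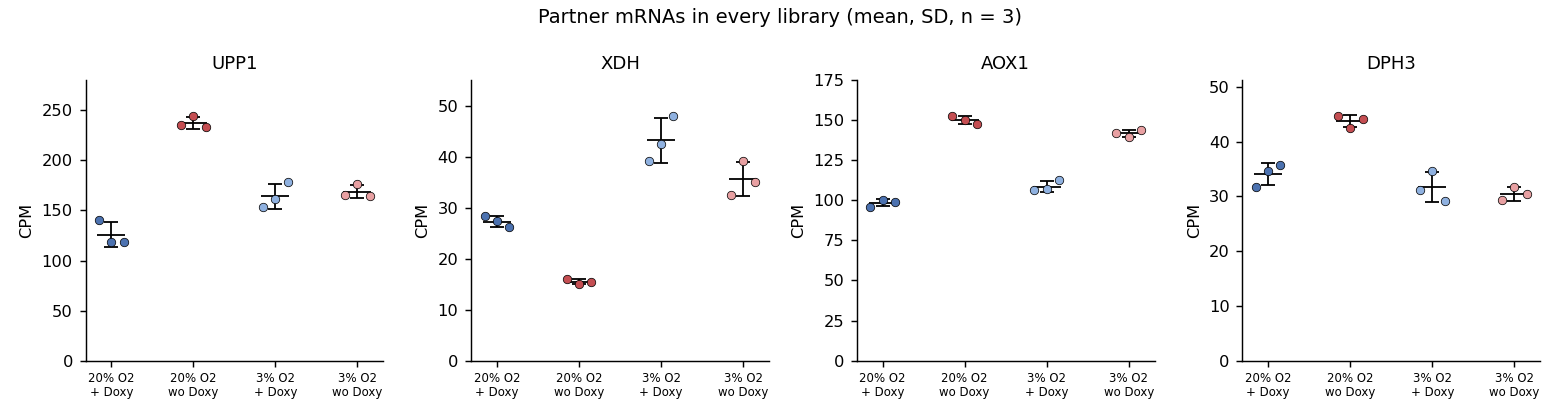
Level of UPP1, XDH, AOX1 and DPH3 in CPM (vertical axes from 0) in each of the 12 libraries by condition; points are libraries, horizontal bars the mean and error bars the SD of 3 replicates. UPP1 and DPH3 are highest in 20% O2 wo Doxy, XDH is lowest there, and AOX1 is higher without Doxy at both oxygen levels.

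The CIA list held 9 genes of the system that passes clusters to enzymes of the cytosol and nucleus. That system does not serve every enzyme described here, and CDK5RAP1, for example, is mitochondrial. On FDX2 loss at 20% O2, 4 of the 9 fell and none rose (median log2 -0.23 beside 0.0090 for all genes, of which 17.7% were called lower). MMS19, the scaffold of the targeting complex, fell (-0.34, adjusted p = 0.012), as did CIAO2A, which serves iron regulatory protein 1 (-0.33, adjusted p = 0.0015), NUBP1 of the scaffold that builds the cluster (-0.23, adjusted p = 0.036) and CIAPIN1 of its electron supply (-0.19, adjusted p = 0.010). The NUBP1 call was lost without 20% O2 + Doxy replicate 1 or 2 or 20% O2 wo Doxy replicate 1 or 3 (adjusted p up to 0.094) and after GC correction (-0.15, adjusted p = 0.094). None of the 9 was called on FDX2 loss at 3% O2 (median log2 0.0024 beside 0.041 for all genes, and 1 at an unadjusted p under 0.05). Without Doxy, 3 of the 9 were higher at 3% O2, beside 13.9% of all genes: MMS19 (0.32, adjusted p = 0.024), NUBP1 (0.25, adjusted p = 0.037) and CIAO2A (0.22, adjusted p = 0.021). These calls were lost in several fits with 1 library left out. MMS19 lost its call in 5 of 6 such fits, all but the one without 3% O2 wo Doxy replicate 1 (adjusted p up to 0.088), NUBP1 without replicate 1 or 3 of either condition (up to 0.15), and CIAO2A without any 20% O2 wo Doxy replicate or 3% O2 wo Doxy replicate 1 (up to 0.15). With Doxy none was called between oxygen levels or had an unadjusted p under 0.05. Over all 8 lists, 71 of 75 partner genes were tested, and 10 rose and 24 fell at 20% O2 (17.6% and 17.7% of all genes) beside 3 and 3 at 3% O2 (4.2% and 3.11% of all genes).

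For the 3 genes with the largest range of condition means, the genes whose log2 CPM was most alike over the 12 libraries were sought among the 10764 genes of at least 5 CPM. DPYD was most like EXOC4 (Pearson r = 0.976), ENSG00000260922 (0.972) and TRAF5 (0.969). CDKAL1 was most like PPP2R3C (0.968), MYO5A (0.964) and ZMYM5 (0.962), and PPAT was most like USP1 (0.983), EIF5B (0.981) and AZIN1 (0.978). The values describe 12 libraries that share depth, condition and GC gap. The 3 genes most like DPYD differed by 0.44, 0.88 and 0.46 on FDX2 loss at 20% O2 and by 0.28, 0.49 and 0.35 at 3% O2, on the log2 scale. Those most like CDKAL1 differed by 0.47, 0.20 and 0.39 at 20% O2 and by 0.24, 0.085 and 0.17 at 3% O2. Those most like PPAT differed by -0.33, -0.37 and -0.37 at 20% O2 and by -0.069, -0.11 and -0.099 at 3% O2. All these genes were chosen for likeness over the same 12 libraries, condition differences included. Differences like those of the 3 genes therefore follow from the choice.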

How the data were processed

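Raw counts per gene, as deposited, were made by the authors from poly(A) RNA of 12 libraries read in paired-end mode on DNBSEQ-T7, with STAR and featureCounts on GRCh38 per the labels. Which tool versions and gene annotation were used, and how strand and multimapped reads were handled, is not given in the sources used here. All 58735 identifiers were found in GENCODE 29, which gave positions, exon lengths and GC content, and 58207 have a symbol.

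The analysis used edgeR 4.0.16 under R 4.3.3. The filter was filterByExpr (minimum count 10, minimum total 15) and the scaling TMM. All 12 libraries entered 1 quasi-likelihood fit that estimated a mean for each of the 4 conditions, which left 8 residual degrees of freedom. P-values were adjusted by Benjamini-Hochberg over 16891 genes, and an adjusted p under 0.05 was called. CPM are counts scaled to a common TMM library total, and RPKM are CPM per kilobase of exon. The steps were tested on simulated data.

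The GC gap of a library is the median log2 level, relative to the mean of the libraries, of genes in the upper 25% of transcript GC less that of the lower 25%, and GC correction fitted a lowess curve (span 0.3) per library. Alternatives were DESeq2 1.42.0 (size factors and Wald test), other filters and thresholds, the 6 libraries compared, a replicate block, GC correction, and each library left out. Leaving out the 3 GC-rich libraries together was chosen after seeing the data. Deviations of same-numbered libraries of 20% O2 wo Doxy and 3% O2 wo Doxy correlated at 0.25 to 0.36. For no other 2 conditions were all such correlations positive. Differently numbered libraries of 20% O2 + Doxy and 3% O2 + Doxy reached 0.82. The labels do not state that the numbers mark a shared batch, so that the pairing rests on these data alone.

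The 10 genes, the 8 partner lists and the tests were chosen with earlier results of these data known. Named were the 10 genes, TYW1B, FDX2, and from each list at most 3 called genes with the largest change in each Doxy and oxygen comparison. Other called genes (YRDC, ELP6, TRMT112, SUOX at 20% O2, GMPS, PAICS, GART at 20% O2, ADSL, ETF1, GSPT1, PELO, YAE1 at 20% O2, CIAPIN1, ELP4, MOCS3, DNAJC24) were named after their values were seen. No 2 libraries held identical counts. The median chi-square per degree of freedom between replicates, taken over genes, was lowest in 20% O2 wo Doxy (1.32). It was 3.20 in 3% O2 wo Doxy, 3.99 in 3% O2 + Doxy and 4.555 in 20% O2 + Doxy, while the fit shared its estimate of spread over all conditions. Promoters are from RefSeq (GRCh38.p14). P-values measure the spread between these libraries. Results for some listed genes are not reported here.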

Additional observations from a re-analysis of the deposited data

Results flagged for a closer look

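The difference between the FDX2-loss responses at 3% and 20% O2 was called by edgeR's quasi-likelihood test (Benjamini-Hochberg adjustment) for none of the 10 Fe-S enzyme genes and for 6 of the 71 partner genes tested, beside 7.29% of all genes. UPP1 had a difference of -0.88 (adjusted p = 0.0012), and this call held in all 12 fits that left out 1 library. XDH had 0.54 (adjusted p = 0.023), and its call was lost in 6 of 12 such fits, those without 20% O2 + Doxy replicate 2, 20% O2 wo Doxy replicate 2 or 3, 3% O2 + Doxy replicate 1 or 2, or 3% O2 wo Doxy replicate 2 (adjusted p up to 0.060). DPH3 had -0.42 (adjusted p = 0.031), lost in 10 of 12, all but those without 20% O2 + Doxy replicate 3 or 3% O2 + Doxy replicate 3 (adjusted p up to 0.11). ELP5 had 0.37 (adjusted p = 0.041), lost in 10 of 12, all but those without 20% O2 + Doxy replicate 2 or 3% O2 + Doxy replicate 3 (adjusted p up to 0.10). GMPS had 0.33 (adjusted p = 0.048), lost in 9 of 12, all but those without 20% O2 + Doxy replicate 1, 3% O2 + Doxy replicate 3 or 3% O2 wo Doxy replicate 2 (adjusted p up to 0.16). ALKBH8 had -0.35 (adjusted p = 0.050), lost in 10 of 12, all but those without 3% O2 + Doxy replicate 3 or 3% O2 wo Doxy replicate 1 (adjusted p up to 0.15). With the replicate number as a block in all 12 libraries the UPP1 call held (adjusted p = 0.0088), and those of XDH (adjusted p = 0.056), DPH3 (0.064), ELP5 (0.083), GMPS (0.11) and ALKBH8 (0.11) were lost. The ALKBH8 call was lost under 5 of 7 settings other than a library left out, those of ELP5 and GMPS under 4, that of DPH3 under 2 and that of XDH under 1. In DPH3, ALKBH8 and UPP1 the response was higher at 20% O2, and in XDH, ELP5 and GMPS it was lower there. Groups of 3 replicates were not tested for single outlying libraries.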

How the results depend on the processing

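Of the 5 calls among the 10 Fe-S enzyme genes, 4 held in each refit at the same threshold, and that of DPYD at 3% O2 did not. Of the 53 named calls among partner genes, 29 held and 24 were lost in at least 1 such refit, none with a change of direction under another setting. Called partner genes named outside the rule were not refitted. The number of the 10 genes called on FDX2 loss at 20% O2 was 3, and it was 0 with a 2-fold minimum, 6 with DESeq2's Wald test (36.4% of all genes), 5 with GC correction (46.4%), 6 without the 3 GC-rich libraries (42.5%), 4 with no filter on low counts (16.3%) and 4 with the 6 libraries compared alone (40.1%). On FDX2 loss at 3% O2 it was 1 (7.31% of all genes). It was 0 at an adjusted p under 0.01 and with a 2-fold minimum. With no filter on low counts (2.06%) and with the 6 libraries compared alone (1.36%) it was also 0. It was 3 with GC correction (19.3%) and without the 3 GC-rich libraries (15.2%). For oxygen with Doxy it was 0 (2.02% of all genes), and 1 with GC correction (7.48%). For oxygen without Doxy it was 1 (25.8% of all genes), and 0 with a 2-fold minimum. It was 2 with GC correction (33.1%), with the 6 libraries compared alone (34.2%) and without the 3 GC-rich libraries (33.5%). With the replicate block in the 6 libraries compared it was 3, without GC correction (31.1%) and with it (27.5%). The replicate block in all 12 libraries changed no member's call. For the difference of the responses the number called was 0 (7.29% of all genes). It was 2 with GC correction (18.3%) and without the 3 GC-rich libraries (15%). With 1 library left out the counts lay between 3 and 5, 0 and 1, 0 and 0, 1 and 2, and 0 and 0 in the same order. The shares of all genes called in these fits moved as well. They lay between 25.6% and 32.2%, 3.35% and 9.27%, 1.09% and 2.24%, 13.4% and 24.4%, and 3% and 12.7% in that order. The highest count for FDX2 loss at 20% O2 came without 20% O2 + Doxy replicate 3, the lowest at 3% O2 without 3% O2 + Doxy replicate 1 or 3% O2 wo Doxy replicate 3, and the highest for oxygen without Doxy without 3% O2 wo Doxy replicate 1.

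Direction turned in 17 of 50 gene and comparison pairs, of which none was called with all libraries. For oxygen with Doxy, ELP3 (log2 0.0063) turned to -0.0023 with DESeq2 size factors, -0.011 with no filter, -0.0030 with DESeq2's Wald test and -0.023 without the 3 GC-rich libraries, MOCS1 (0.0091) to -1.5e-05, -0.0073 and -0.073 with size factors, no filter and without those 3, -0.00020 with the replicate block and -0.020 with GC correction, and DPYD (-0.027) to 0.020 with GC correction. On FDX2 loss, MOCS1 at 3% O2 (-0.11) turned to 0.0059 without the 3 GC-rich libraries, and DPH1 at 20% O2 (-0.19) to 0.021 with GC correction and 0.020 without those 3. DPH1 for oxygen without Doxy (0.064) turned to -0.21 with GC correction, -0.22 with GC correction and the replicate block, and -0.093 without those 3. For the difference of the responses, DPH1 (0.14) turned to -0.13 with GC correction and -0.028 without those 3, TYW1 (-0.10) to 0.013 without those 3, and ELP3 (0.022) to -0.00016 with at least 10 counts in every library. With 1 library left out, values on FDX2 loss lay between -0.084 and 0.23 (TYW1), -0.097 and 0.0061 (ELP3), -0.20 and 0.072 (MOCS1) and -0.20 and 0.16 (DPH1) at 3% O2, and between -0.32 and 0.019 for DPH1 at 20% O2. For oxygen with Doxy they lay between -0.14 and 0.0091 (TYW1), -0.020 and 0.039 (ELP3), -0.17 and 0.096 (MOCS1), -0.090 and 0.028 (DPYD), -0.29 and 0.14 (DPH1) and -0.23 and 0.0040 (DPH2). Without Doxy they lay between -0.036 and 0.070 (ELP3) and -0.082 and 0.17 (DPH1). For the difference of the responses they lay between -0.31 and 0.0018 (TYW1), -0.041 and 0.064 (ELP3), -0.051 and 0.12 (ABCE1) and -0.087 and 0.35 (DPH1). The cause was not tested.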
